A study of Mus musculus with 3 samples.

Results

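The subject is the difference between 2 lines of cultured mouse forestomach fibroblasts, one labelled as lacking Tgfbr2 by conditional knockout (cKO) and one labelled wild type, with 1 array each of the 3 arrays in the series. Its members are the 11808 of 19938 named genes that reached a log2 signal of 6.63, the median of the whole table, in at least 1 of the 3 arrays. The cells were labelled as positive for FSP1, the fibroblast marker encoded by S100a4, and their total RNA was read on Affymetrix Mouse Gene 1.0 ST arrays. Per the labels, the source tissue was normal forestomach for wild type but squamous cell carcinoma for Tgfbr2 cKO, so genotype and tissue of origin cannot be told apart. The third line, Tgfbr2/Smad4 cKO from normal forestomach, enters only through the level filter and as a value set beside the others. All lines were described as from C57BL6 and BALBc mice of either sex, mixed, and were grown in medium with 10% serum to subconfluency at passages 4 to 6. Neither the Cre driver nor the number of animals behind each line is stated in the sources used here. With 1 array per line there is no replicate error and no difference below was tested. How precise a value is depends on this number of arrays.

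TGF-beta is a secreted growth factor that binds the type II receptor encoded by Tgfbr2. That receptor recruits and activates a type I receptor, which phosphorylates SMAD2 and SMAD3, and these enter the nucleus with SMAD4. In fibroblasts the pathway is known for driving matrix production and contractile genes and for slowing the growth of neighbouring epithelium. BMPs, a related family, signal through their own receptors and SMAD1, SMAD5 and SMAD9 and share SMAD4, and the study's title asks about BMP7 signalling in stroma that lacks the TGF-beta receptor.

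The 3 arrays had near-equal median signals, which differed by at most 0.00412. The log2 level of Tgfbr2 was 10.25 in both arrays compared and 10.29 in the Tgfbr2/Smad4 cKO array. The value pools probes along the whole transcript, so it does not check a deletion of single exons, and the arrays are named as labelled. S100a4 was bright in each line, at 13.18 in wild type, 13.16 in Tgfbr2 cKO and 12.71 in Tgfbr2/Smad4 cKO. Xist, the RNA of the inactive X chromosome, was at 5.33 and 5.35 in the 2 arrays compared here and at 9.44 in the third. The Y-linked gene Eif2s3y was at 10.12 and 9.9988 in the pair and at 5.01 in the third. Among the genes nearest the level filter, Abcg4 lay just inside with a highest value of 6.6333 and Cdh6 just outside with 6.6328. Of the members, 93 passed only through the Tgfbr2/Smad4 cKO array and were below the filter in both arrays compared.

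Few genes differed much between the lines in the deposited values. The genes at least 2-fold higher in Tgfbr2 cKO were Apod, Mmp3 and Mmp12, and the gene at least 2-fold lower was Upk3b. At least 2-fold higher in the Tgfbr2 cKO array were 3 genes, 0.0254% of those tested, and 1 gene (0.00847%) was at least 2-fold lower. The latter count was 2 after quantile normalization or cyclic loess and 0 with the filter at the 75th percentile or with 32 added on the linear scale. At 1.5-fold the counts were 25 higher (0.212%) and 19 lower (0.161%). They were 14 and 11 once genes had to reach the 75th percentile, and 10 were lower with the offset of 32. As deposited, the counts at 1.2-fold were 183 higher (1.55%) and 161 lower (1.36%). By any amount, 25.8% of genes were higher and 19.0% lower, while 55.1% had exactly equal values. The sources used here do not explain such ties, so equal values are not read as equal RNA levels in the cells. With the genes cut into 4 bins of mean level, the equal share was 71.7%, 62.7%, 50.5% and 35.7% from the dimmest bin to the brightest. The share higher was 13.3%, 20.6%, 30.5% and 38.9%, and the share lower 14.9%, 16.8%, 19.0% and 25.4%. Counts by any amount depended on the scaling, since a small shift parts equal values: 3052 genes were higher and 2245 lower as deposited, 9634 and 2175 after median centring, 6002 and 5675 after quantile normalization, and 3772 and 8035 after cyclic loess. The SD of the differences over genes was 0.095. Counts by list below are read against the shares over all genes given here, and their splits depended on the scaling too.

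**Figure D1:**
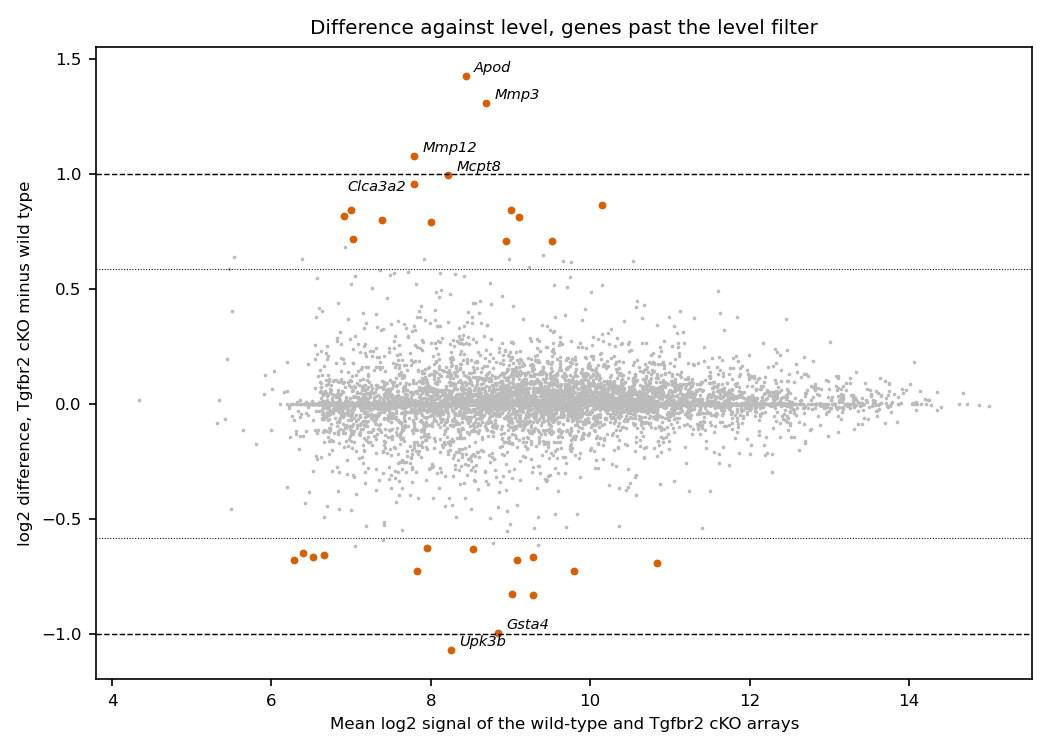
Each grey point is 1 of the 11808 genes, with its mean log2 signal in the wild-type and Tgfbr2 cKO arrays on the x axis and the log2 difference on the y axis. Dashed lines mark 2-fold and dotted lines 1.5-fold, and orange points are the 15 genes with the largest difference in each direction, with Apod at 1.43 and Upk3b at -1.07 at the ends.

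Matrix metalloproteinases, the zinc proteases that cut collagens and other matrix proteins, held 2 of the 3 genes at least 2-fold higher. Mmp3 (stromelysin 1) had log2 levels of 8.04 in wild type, 9.35 in Tgfbr2 cKO and 8.80 in Tgfbr2/Smad4 cKO. The wild-type array was the lowest of the 3, and the first difference came to 1.31, or 2.48-fold. For Mmp12 (macrophage elastase) the levels were 7.25, 8.33 and 8.51, again lowest in wild type, with a difference of 1.08. Mmp10 (stromelysin 2) ran 8.14, 8.69 and 6.60, highest in Tgfbr2 cKO, and differed by 0.56, just short of 1.5-fold. The collagenase gene Mmp13 was dimmer, at 6.75, 7.01 and 6.54, and differed by 0.26. These 4 genes lie in 1 run of 10 metalloproteinase genes on chromosome 9, and the other 6 (Mmp1b, Mmp1a, Mmp8, Mmp27, Mmp20 and Mmp7) were below the level filter, with differences from -0.03 to 0.06. Away from the cluster the gelatinase gene Mmp2 had levels of 10.40, 10.14 and 10.14, a difference of -0.26, and the membrane-bound Mmp16 one of -0.27. Across the whole list of metalloproteinases and their inhibitors, the TIMPs, 9 of 17 members past the filter were higher and 6 lower; the median was 0.01, against 0 over all genes. The inhibitor gene Timp1 was at 13.05, 13.17 and 12.40, a difference of 0.12.

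**Figure D2:**
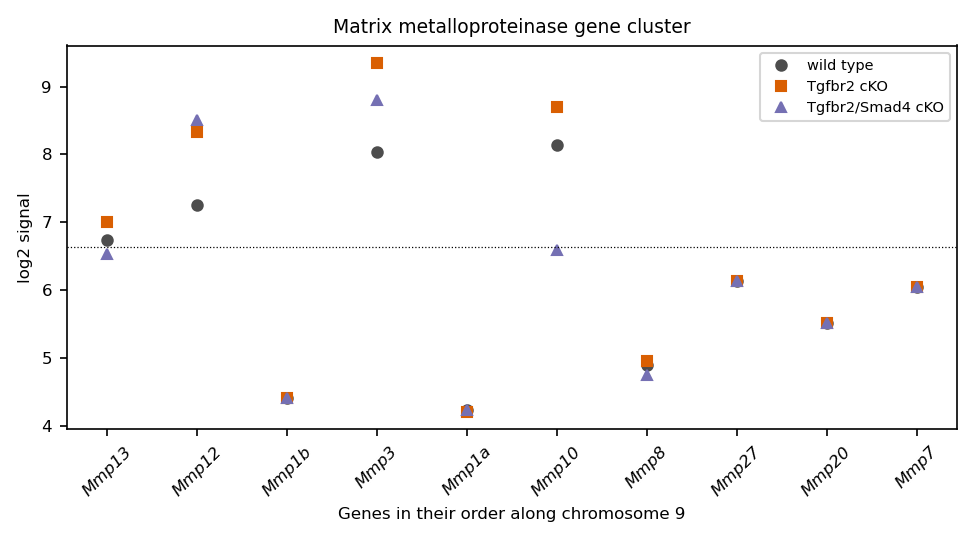
Log2 signal (y axis) of the 10 metalloproteinase genes on chromosome 9 in their order along the chromosome (x axis), 1 symbol per array; the dotted line is the level filter of 6.63. Mmp13, Mmp12, Mmp3 and Mmp10 lie above that line in Tgfbr2 cKO and higher there than in wild type, while the other 6 genes are dim in all 3 arrays.

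The 250 bases before the start of Mmp3, Mmp12 and Mmp10 are shown because these neighbours had the largest differences of their list. Capitals mark TGANTCA, the AP-1 motif, which reads the same on both strands. Sequences are those of RefSeq on GRCm38.p6, written 5' to 3' on the strand of the gene.
Mmp3, chr9:7445572-7445821, plus strand: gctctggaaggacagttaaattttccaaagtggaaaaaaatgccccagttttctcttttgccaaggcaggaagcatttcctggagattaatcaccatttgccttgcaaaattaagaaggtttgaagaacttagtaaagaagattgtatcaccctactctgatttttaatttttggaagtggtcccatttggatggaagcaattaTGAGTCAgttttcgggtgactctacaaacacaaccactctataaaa
Mmp12, chr9:7344147-7344396, plus strand: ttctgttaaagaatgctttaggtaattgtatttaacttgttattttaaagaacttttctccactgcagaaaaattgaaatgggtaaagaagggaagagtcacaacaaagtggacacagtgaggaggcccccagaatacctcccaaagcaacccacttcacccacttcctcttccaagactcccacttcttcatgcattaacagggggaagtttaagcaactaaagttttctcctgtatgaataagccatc
Mmp10, chr9:7502092-7502341, plus strand: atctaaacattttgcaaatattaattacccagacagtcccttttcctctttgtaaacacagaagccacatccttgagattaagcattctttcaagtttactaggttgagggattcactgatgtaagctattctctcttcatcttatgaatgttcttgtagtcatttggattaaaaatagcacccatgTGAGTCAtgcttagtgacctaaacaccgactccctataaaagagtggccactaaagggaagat
The motif stood once in Mmp3, at position -46 from the start, and once in Mmp10, at -63, and was not found in this window of Mmp12. It was present in 3 of 13 list members with a sequence (23.1%), against 4.25% of tested genes and 6.87% of all 27025 promoters. The list of immediate early genes, which includes those of the AP-1 factors, had 16 of 29 members higher, 1 lower and 0 past 1.2-fold, and its median was 0.02, against 25.8% higher over all genes. The split was 19 higher and 10 lower after quantile normalization and 17 and 12 after cyclic loess. The largest differences in it were 0.25 for Ier5, 0.21 for Btg2 and 0.20 for the phosphatase gene Dusp1.

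The largest difference of all was that of Apod, which encodes apolipoprotein D, a secreted carrier of small lipids. Its levels were 7.73 in wild type, 9.15 in Tgfbr2 cKO and 7.48 in Tgfbr2/Smad4 cKO, so that the Tgfbr2 cKO array stood alone, with a 2.69-fold difference. Other genes of lipid transport and storage showed smaller values, with 12 of 22 in the whole list higher, 6 lower and a median of 0.03. The shares over all genes were 25.8% higher and 19.0% lower. The lipid droplet gene Plin2 differed by 0.27, the VLDL receptor gene Vldlr by 0.23 and the lipoprotein lipase gene Lpl by -0.37.

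Pdgfrl, which encodes a secreted protein related to the PDGF receptor, had levels of 9.72, 10.58 and 11.78 and differed by 0.87. Igfbp5, an IGF-binding protein deposited in matrix, was at 8.58, 9.43 and 7.0005, a difference of 0.84. Of the other IGF-binding proteins, Igfbp3 was at 8.89, 8.54 and 10.67, a difference of -0.35, and Igfbp6 differed by -0.19. Igfbp5 was thus highest in the Tgfbr2 cKO array while Igfbp3 was lowest there. The adhesive glycoprotein gene Edil3 differed by 0.84, the SPARC-related gene Sparcl1 by 0.80 and the laminin chain gene Lama4 by 0.65. Dpt (dermatopontin) differed by 0.64, but its levels of 5.21 and 5.85 were both below the filter, which it passed through a value of 9.45 in the third array. Collagen XIV (Col14a1), which binds the surface of collagen fibrils, was at 8.59, 9.30 and 7.30, a difference of 0.71.

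The interleukins Il11 and Il6, which signal through the shared receptor gp130, were both higher. Il11 had levels of 7.60, 8.39 and 7.03 and a difference of 0.79. For Il6 the levels were 9.17, 9.88 and 6.89 and the difference 0.71. In each case the order was Tgfbr2 cKO, then wild type, then Tgfbr2/Smad4 cKO. Of the 15 members of the interleukin list past the filter, 7 were higher and 3 lower (median 0). This count and that of the chemokines below are read against 25.8% higher and 19.0% lower over all genes. The IL-1 receptor antagonist gene Il1rn differed by 0.29 and Il15 by 0.26. Chemokine genes stayed close to equal, with 4 of 11 higher, 2 lower, Ccl2 at 0.14 and Cx3cl1 at -0.31.

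Also high were Mcpt8, a granzyme-like serine protease of basophils, at 7.72, 8.72 and 6.36, with a difference of 0.996 that fell just short of 2-fold. Clca3a2, of a family named for calcium-activated chloride channels, had levels of 7.31, 8.27 and 7.37 and differed by 0.96. Lyz2 (lysozyme) was at 8.70, 9.52 and 7.75. Cyp7b1, an oxysterol hydroxylase, was dim in wild type at 6.51 and reached 7.32 in Tgfbr2 cKO and 8.01 in Tgfbr2/Smad4 cKO. Mgarp, a mitochondrial protein gene, was at 6.67, 7.39 and 5.83.

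**Figure D3:**
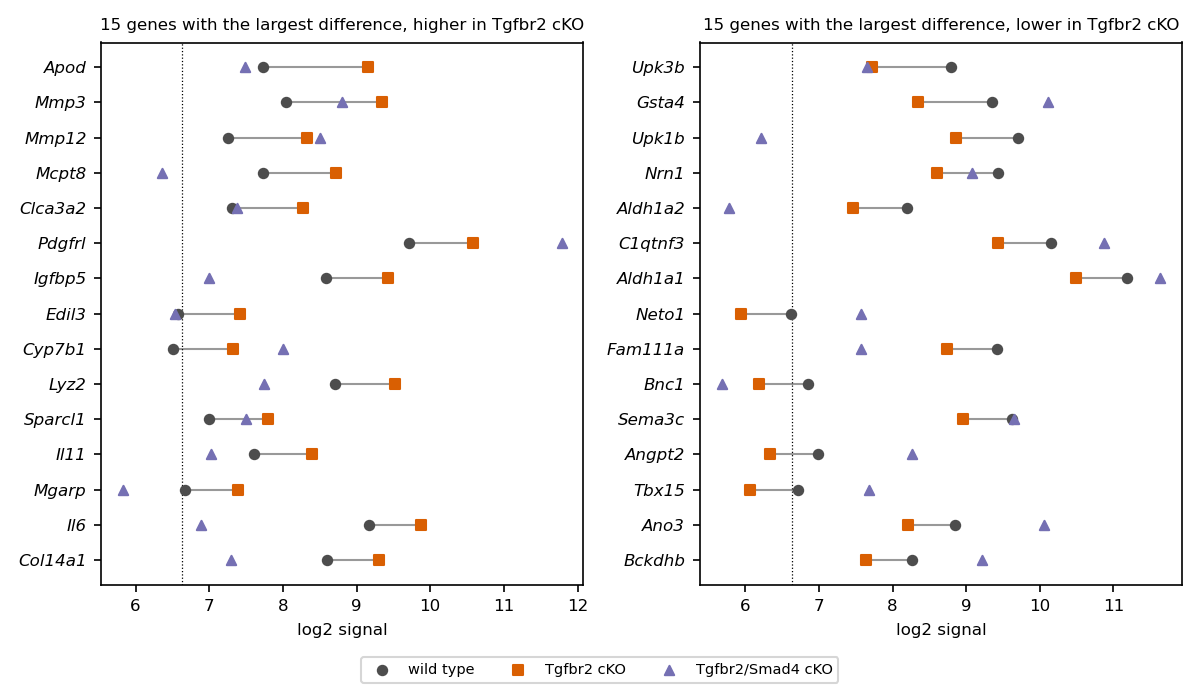
Log2 signal (x axis) of the 15 genes with the largest positive (left) and negative (right) difference, largest at the top, with 1 symbol per array and a grey line joining wild type to Tgfbr2 cKO; the dotted line is the level filter of 6.63. The third array lies on either side of the pair, as for Mcpt8 at 6.36 and Pdgfrl at 11.78.

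On the lower side, the largest difference was that of a marker of mesothelium, the epithelium-like layer that covers the organs of the body cavity. The uroplakin gene Upk3b had levels of 8.79, 7.72 and 7.65 and was 2.10-fold lower, a difference of -1.07. Upk1b, another uroplakin gene, was at 9.70, 8.87 and 6.21, a difference of -0.83. The transcription factor gene Bnc1 ran 6.85, 6.19 and 5.68, the mesothelin gene Msln 7.07, 6.62 and 6.55, and Wt1 8.23, 7.82 and 7.82. In all of these the wild-type array was the highest of the 3. Of the 13 mesothelial markers past the filter, of 18 measured, 8 were lower, 1 was higher and 4 were equal, with a median of -0.28. At 1.2-fold, 7 were lower and 1 higher. Over all genes 19.0% were lower by any amount and 1.36% by at least 1.2-fold. Msln and Bnc1 passed the filter only through the wild-type array, where they were highest, so these counts do not stand for every marker. The median rested on the level filter: it was -0.024 over all 18 markers and -0.027 once genes had to reach the 75th percentile. The exception was the keratin gene Krt19, at 8.82, 9.25 and 6.93, a difference of 0.42, whereas the keratin genes Krt8 and Krt18 differed by -0.28 and -0.30. The summed linear signal of the list was 4668 in wild type, 3997 in Tgfbr2 cKO and 2716 in Tgfbr2/Smad4 cKO. In bulk RNA, fewer cells of a type and less RNA per cell cannot be told apart.

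Retinoic acid, made from retinaldehyde, patterns foregut mesenchyme, and both of its best-known mesenchymal synthesis enzymes were lower. Aldh1a2 had levels of 8.19, 7.46 and 5.78 and a difference of -0.73. Aldh1a1 was at 11.19, 10.49 and 11.64, a difference of -0.69. The Tgfbr2 cKO array was thus the lowest for Aldh1a1 but lay between the others for Aldh1a2. The retinoic acid receptor gene Rarb, itself a known target of retinoic acid, went the other way, at 8.66, 9.29 and 8.04, a difference of 0.63. Dhrs3, which turns retinaldehyde back to retinol, differed by 0.24. Over the list of 17, 6 were higher, 3 lower and 8 equal, against 25.8%, 19.0% and 55.1% of all genes. Aldh1a2 is also a gene of embryonic mesothelium, and was lower, as were 8 of the 13 markers above; their part in this value was not tested.

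Gsta4, a glutathione transferase that detoxifies lipid aldehydes, had levels of 9.35, 8.35 and 10.12 and a difference of -0.998, just short of 2-fold. It stood alone among 39 genes of glutathione metabolism and NRF2 response, where 11 were higher, 14 were lower, the median was 0 and the next largest difference was -0.18 for Gpx3. Nrn1 (neuritin) was at 9.43, 8.61 and 9.08, a difference of -0.83, and the adipokine-like gene C1qtnf3 at 10.16, 9.43 and 10.87, a difference of -0.73. The axon guidance gene Sema3c had levels of 9.62, 8.96 and 9.66, and Fam111a 9.42, 8.74 and 7.57. Angpt2, a ligand of the endothelial receptor TIE2, was dim, at 6.99, 6.34 and 8.27. Vegfd, a growth factor for lymphatic vessels, was bright, at 11.67, 11.13 and 13.53, with a difference of -0.54. The transcription factor gene Tbx15 differed by -0.65, and the branched-chain keto acid dehydrogenase gene Bckdhb by -0.63. Ano3, read by 2 probe sets, differed by -0.63, and Neto1 by -0.68 from levels of 6.62 and 5.94 that both lay below the filter. Cd34, a surface marker of stromal progenitors, was at 7.36, 6.74 and 7.0046.

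Among the genes of the TGF-beta pathway itself, none of 28 ligands, receptors, latency proteins and SMADs differed 1.5-fold. The median was 0, with 11 higher, 7 lower and 10 equal. That split was 12 higher and 15 lower after quantile normalization and 11 and 17 after cyclic loess. Of the ligands, Tgfb1 had levels of 9.81, 9.95 and 9.78, Tgfb2 9.19, 9.34 and 10.27, and Tgfb3 10.48, 10.51 and 9.76, so each was slightly higher in Tgfbr2 cKO than in wild type, by 0.14, 0.14 and 0.04. The type I receptor gene Tgfbr1 differed by 0.10 and Acvrl1, an alternative type I receptor, by 0.18. The co-receptor gene Eng (endoglin) was at 9.46, 9.96 and 11.65, a difference of 0.51. The other co-receptor gene, Tgfbr3 (betaglycan), was at 9.83, 9.54 and 10.03, a difference of -0.30. Lrrc32, whose product GARP holds latent TGF-beta at the cell surface, had levels of 11.36, 11.85 and 10.09 and a difference of 0.49, while the latent binding protein gene Ltbp1 differed by -0.27. The signal carriers Smad1, Smad2, Smad3, Smad4 and Smad5 had tied deposited values in the pair, at 9.62, 9.82, 9.85, 11.06 and 9.51. Inhibitors of the pathway were also close, with Smad6 at -0.10, the ligase gene Smurf1 at 0.20 and Smad7 at 0.0045.

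Of 45 direct TGF-beta response genes past the filter, 31 were higher in the Tgfbr2 cKO array, 7 lower and 7 equal, with a median of 0.04. That share of higher genes is above the 25.8% of all genes, and 27 of the 45 lay in the brightest level bin, where 38.9% were higher. At 1.2-fold only Il11 and Lmcd1 were higher and Adam12 lower. Lmcd1, a LIM-domain regulator of transcription, was at 7.43, 8.0003 and 7.02. The matrix signalling gene Ccn2 had levels of 13.97, 14.16 and 11.80 and a difference of 0.18. Snai1, a repressor of epithelial genes, differed by 0.16, Timp1 by 0.12 and the contractile gene Cnn1 by 0.12. The smooth muscle genes Acta2 and Tagln were bright and near equal, at 14.66 and 14.70 for the first and 14.10 and 14.09 for the second. Adam12, a membrane protease gene, was at 9.63, 9.31 and 8.78, and the proteoglycan gene Vcan at 10.95, 10.72 and 9.80.

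Bmp7 lay below the level filter, at 6.45 in each of the 3 arrays. Of 22 BMP and activin ligands, receptors and antagonists past the filter, 4 were higher, 9 lower and 9 equal, with a median of 0. Over all genes 25.8% were higher and 19.0% lower. The list split was 13 higher and 9 lower after median centring, 8 and 14 after quantile normalization and 5 and 17 after cyclic loess. Bmp4 was at 8.66, 8.61 and 11.63 and Gdf6 at 9.64, 9.62 and 7.41, so both were close in the pair compared. The largest difference was that of Fst (follistatin), an activin antagonist, at 10.63, 10.26 and 11.13, a difference of -0.37. Its ligand gene Inhba ran 12.20, 12.44 and 10.84, a difference of 0.24, and Inhbb differed by -0.21. Bmper, a secreted BMP modulator, differed by -0.23, and the abundant antagonist gene Grem1 was at 14.04 in both arrays. The receptor genes Bmpr1a and Bmpr2 differed by -0.04 and -0.02. BMP response genes numbered 4 higher and 5 lower of 24, and the largest difference was that of Msx2, at 7.91, 7.63 and 7.56. Their split was 15 and 8 after quantile normalization and 6 and 18 after cyclic loess.

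Mitosis genes lay mostly on the lower side. Of 58 past the filter, 52 were lower in Tgfbr2 cKO, 1 was higher and 5 were equal, against 19.0% lower over all genes, with a median of -0.20. At 1.2-fold 17 were lower and 0 higher, and at 1.5-fold 0 were lower. After median centring, quantile normalization and cyclic loess, 52, 54 and 57 were lower. Ect2, which sets the site of the cleavage furrow, had levels of 9.80, 9.32 and 7.58 and a difference of -0.48. The checkpoint kinase gene Bub1 ran 9.18, 8.72 and 6.54, and Nuf2, a kinetochore protein gene, 9.30, 8.86 and 7.27. Cdk1, the kinase that drives entry into mitosis, was at 10.67, 10.33 and 9.41, and Mki67, which encodes the Ki-67 antigen, at 9.65, 9.34 and 7.70. Wild type was thus the highest and Tgfbr2/Smad4 cKO the lowest in each of these 5 genes, and Tgfbr2 cKO lay nearer to wild type. The summed signal of the list was 31795, 27586 and 12584.

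Replication genes had smaller differences, with 30 of 51 lower, 4 higher and a median of -0.01, against 19.0% lower over all genes. Their split was 38 lower and 12 higher after quantile normalization and 47 and 4 after cyclic loess. The chromatin remodeller gene Hells was the 1 member past 1.2-fold, at 8.72, 8.39 and 7.42, and Uhrf1, Pola1 and Mcm3 differed by -0.24, -0.24 and -0.23. Replication-linked histone genes numbered 8 lower and 2 higher of 17, among them the linker histone gene H1f5 at 10.65, 10.29 and 9.22. At 1.2-fold 3 histone genes were lower, against 1.36% over all genes. The histone split was 12 lower and 5 higher after quantile normalization and 15 and 2 after cyclic loess. Among regulators of the G1 phase, the cyclin gene Ccnd1 was at 11.43, 11.05 and 12.13, a difference of -0.38, and the inhibitor gene Cdkn2a at 9.77, 9.54 and 11.33. The stress genes Gadd45g and Gadd45a differed by 0.32 and 0.26.

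The upstream 250 bases of Ect2, Bub1 and Nuf2 are shown as those of the mitosis genes with the largest negative differences. Capitals mark CCAAT, bound by NF-Y, and TTTGAA, a form of the cell cycle homology region known from mitosis genes, on either strand.
Ect2, chr3:27153879-27154128, minus strand: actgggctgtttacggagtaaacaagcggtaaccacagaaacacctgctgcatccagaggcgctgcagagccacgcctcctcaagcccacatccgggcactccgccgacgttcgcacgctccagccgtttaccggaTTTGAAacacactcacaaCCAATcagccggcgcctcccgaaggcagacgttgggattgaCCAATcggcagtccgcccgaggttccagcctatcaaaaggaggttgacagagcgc
Bub1, chr2:127831860-127832109, minus strand: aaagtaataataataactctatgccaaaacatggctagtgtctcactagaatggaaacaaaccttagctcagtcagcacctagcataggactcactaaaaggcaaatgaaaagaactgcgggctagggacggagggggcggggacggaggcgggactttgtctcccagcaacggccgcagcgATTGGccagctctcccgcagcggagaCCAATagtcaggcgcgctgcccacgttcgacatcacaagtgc
Nuf2, chr1:169531465-169531714, minus strand: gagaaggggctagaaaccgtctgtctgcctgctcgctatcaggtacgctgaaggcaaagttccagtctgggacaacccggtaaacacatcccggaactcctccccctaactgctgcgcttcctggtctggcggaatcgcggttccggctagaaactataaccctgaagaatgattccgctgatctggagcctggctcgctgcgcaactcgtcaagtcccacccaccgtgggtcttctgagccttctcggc
Ect2 held CCAAT at -96 and -55 and TTTGAA at -114, Bub1 held CCAAT at -68 and -42, and neither motif was found in this window of Nuf2. CCAAT was present in 31 of 48 list members with a sequence (64.6%), against 35.8% of tested genes and 34.5% of all promoters. TTTGAA was present in 15 of the 48 (31.2%), against 10.1% of tested genes and 16.3% of all promoters.

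Genes of the hypoxia response and of glycolysis lay mostly on the higher side. Of 41 past the filter, 33 were higher in Tgfbr2 cKO, 2 lower and 6 equal, with a median of 0.10. At 1.2-fold 7 were higher and 1, Anln, was lower; Anln is also in the mitosis list. After the same 3 scalings, 39, 35 and 34 were higher. Here 24 of the 41 lay in the brightest level bin, where 38.9% of genes were higher. The mitophagy receptor gene Bnip3 had levels of 10.36, 10.81 and 9.98 and a difference of 0.45. Ndrg1, a hypoxia-induced gene, was at 9.37, 9.75 and 9.37, and the collagen prolyl hydroxylase gene P4ha2 at 10.46, 10.84 and 9.72. Next came the adenylate kinase gene Ak4 at 9.22, 9.56 and 8.03, the lactate exporter gene Slc16a3 at 10.67, 11.02 and 8.44, Ankrd37 at 8.0012, 8.29 and 7.56, and the angiogenic factor gene Vegfa at 10.35, 10.62 and 10.41. In all 7 the Tgfbr2 cKO array was the highest of the 3. The glucose transporter gene Slc2a1 and hexokinase gene Hk2 each differed by 0.17. Subunits of oxidative phosphorylation, 49 of 50 of them in the brightest level bin, numbered 22 higher and 5 lower, and the largest difference among them was 0.15, for Atp5d. Their split turned with the scaling, to 22 higher and 27 lower after quantile normalization and 20 and 30 after cyclic loess.

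The upstream sequences of Bnip3, P4ha2 and Ak4 are shown as hypoxia genes with the largest differences among those with a sequence. Capitals mark ACGTG, a form of the core bound by hypoxia-inducible factors, on either strand. Other forms of that core were not searched for and are not marked.
Bnip3, chr7:138909507-138909756, minus strand: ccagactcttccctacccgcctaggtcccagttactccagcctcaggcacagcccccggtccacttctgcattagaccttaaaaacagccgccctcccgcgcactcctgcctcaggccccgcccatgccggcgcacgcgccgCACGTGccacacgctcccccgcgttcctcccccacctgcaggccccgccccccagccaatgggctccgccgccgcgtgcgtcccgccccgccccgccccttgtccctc
P4ha2, chr11:54100674-54100923, plus strand: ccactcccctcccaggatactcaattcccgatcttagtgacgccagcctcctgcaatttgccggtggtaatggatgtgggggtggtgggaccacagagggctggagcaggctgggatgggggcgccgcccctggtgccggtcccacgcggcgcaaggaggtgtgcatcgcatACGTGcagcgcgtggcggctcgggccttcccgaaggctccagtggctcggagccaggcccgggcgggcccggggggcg
Ak4, chr4:101419039-101419288, plus strand: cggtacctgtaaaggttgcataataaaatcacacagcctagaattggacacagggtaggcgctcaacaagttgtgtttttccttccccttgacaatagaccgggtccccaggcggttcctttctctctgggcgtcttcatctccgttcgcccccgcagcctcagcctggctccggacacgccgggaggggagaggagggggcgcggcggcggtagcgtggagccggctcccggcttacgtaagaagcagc
Bnip3 held ACGTG on both strands in 1 overlapping pair at -108 and -107. P4ha2 held it at -78, and this form was not found in this window of Ak4. Of 37 list members with a sequence, 20 (54.1%) held ACGTG, against 22.0% of tested genes and 16.6% of all promoters.

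**Figure D4:**
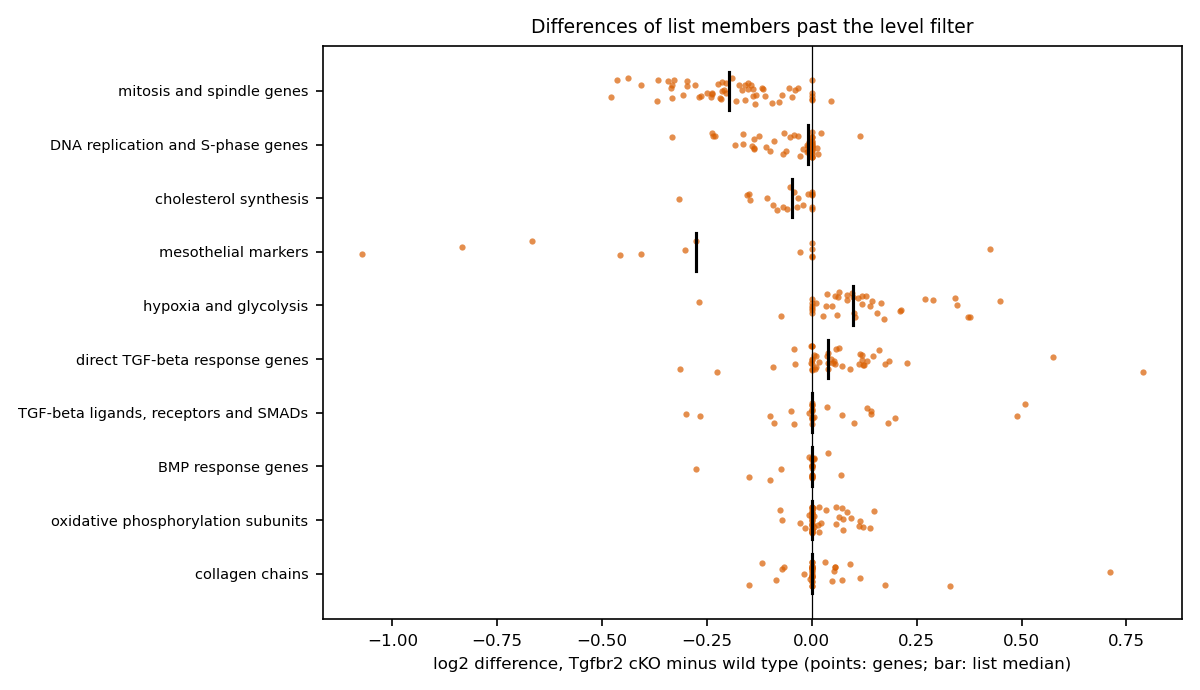
Log2 difference of each member past the level filter (points) in 10 lists (rows), with the list median as a black bar and points spread vertically for visibility. Most mitosis genes lie left of 0 (median -0.20) and most hypoxia and glycolysis genes right of it (median 0.10), while BMP response genes and collagen chains have medians of 0.

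Cholesterol synthesis genes were lower in 15 of 20 members, equal in 5 and higher in 0, though the median was -0.05 and only Sqle passed 1.2-fold. Over all genes 19.0% were lower, and 25.4% in the brightest level bin, which held 11 of the 20. Sqle, the squalene epoxidase gene, was at 10.72, 10.40 and 11.29. The HMG-CoA synthase gene Hmgcs1, Idi1 and Cyp51 each differed by -0.15. Of 19 fatty acid synthesis genes, 8 were higher and 7 lower as deposited, 8 and 11 after quantile normalization and 6 and 13 after cyclic loess. The largest difference there was 0.26, for the desaturase gene Fads1. The oxysterol enzyme gene Ch25h, chosen after its value was seen, was at 9.89, 10.41 and 8.63, and Cyp7b1, described above, acts on the product of that enzyme.

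Structural matrix genes are read against 25.8% higher, 19.0% lower and 55.1% equal over all genes. Of 39 collagen chains, 11 were higher, 7 lower and 21 equal (median 0), and only Col14a1 and Col18a1 passed 1.2-fold, Col18a1 at 8.18, 8.51 and 8.68. Matrix glycoproteins and proteoglycans numbered 20 higher (43.5%) and 16 lower (34.8%) of 46, and 25 of the 46 lay in the brightest level bin. The hyaluronan synthase gene Has2 was at 11.65, 12.03 and 9.47, a difference of 0.38, and Efemp1 (fibulin 3) at 11.69, 11.31 and 12.77, a difference of -0.38. Enzymes of collagen processing and crosslinking numbered 11 higher (52.4%) and 6 lower (28.6%) of 21, of which 16 lay in that bin, with Pcolce2, an enhancer of procollagen cleavage, at 0.27 and the procollagen protease gene Tll1 at -0.31. Plasminogen activation and serpin genes numbered 8 higher and 5 lower of 14, with the C1 inhibitor gene Serping1 at 0.26, the activator gene Plat at -0.29 and Serpina3n at -0.32. Of adhesion receptors, P-cadherin (Cdh3) was at 9.24, 8.68 and 8.98, and the integrin genes Itga5 and Itga11 differed by 0.27 and -0.37.

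Growth factors and receptors that link stroma to epithelium were mixed, with 13 higher and 11 lower of 35. Their split was 19 and 16 after quantile normalization and 16 and 19 after cyclic loess. The counts in this paragraph are read against 25.8% higher and 19.0% lower over all genes. Pdgfra, the PDGF receptor of fibroblasts, was at 9.73, 10.14 and 11.13, a difference of 0.41, and the HGF receptor gene Met at 9.03, 8.69 and 9.28. In the Wnt list 15 of 40 were higher and 6 lower as deposited, 26 and 14 after quantile normalization and 19 and 21 after cyclic loess. The secreted Wnt antagonists Frzb, at 8.93, 9.53 and 6.34, and Sfrp1, at 8.40, 8.80 and 8.22, had the largest differences, 0.60 and 0.40. Among 18 Notch and Hedgehog genes the Notch ligand gene Jag1 differed most, at 9.72, 10.08 and 10.34. HOX and mesenchymal patterning genes numbered 8 higher and 8 lower of 29, with Tbx18 at 0.29 and Hoxc6 at -0.22. Ptgis, which makes prostacyclin, was at 9.97, 9.43 and 10.96, the 1 prostaglandin gene of 11 past 1.2-fold. Complement and acute-phase genes numbered 5 higher and 4 lower of 13, with C4b at 0.40 and Cd55 at -0.30.

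No member passed 1.2-fold in the unfolded protein response list, with 15 of 31 higher and 10 lower, or among cytosolic ribosomal proteins, with 14 of 31 higher and 11 lower. Both medians were 0. Interferon response genes numbered 5 higher and 4 lower of 21, with Stat2 at 0.27. Lysosome genes numbered 18 higher and 12 lower of 39, with Ctss (cathepsin S) at 0.37. Of these 39, 23 lay in the brightest level bin, where 38.9% of genes were higher. After quantile normalization and cyclic loess, the lysosome split was 16 higher and 23 lower, then 18 and 21. The unfolded protein response split was 14 and 17 after each, and the ribosomal split 13 and 18, then 12 and 19.

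**Figure D5:**
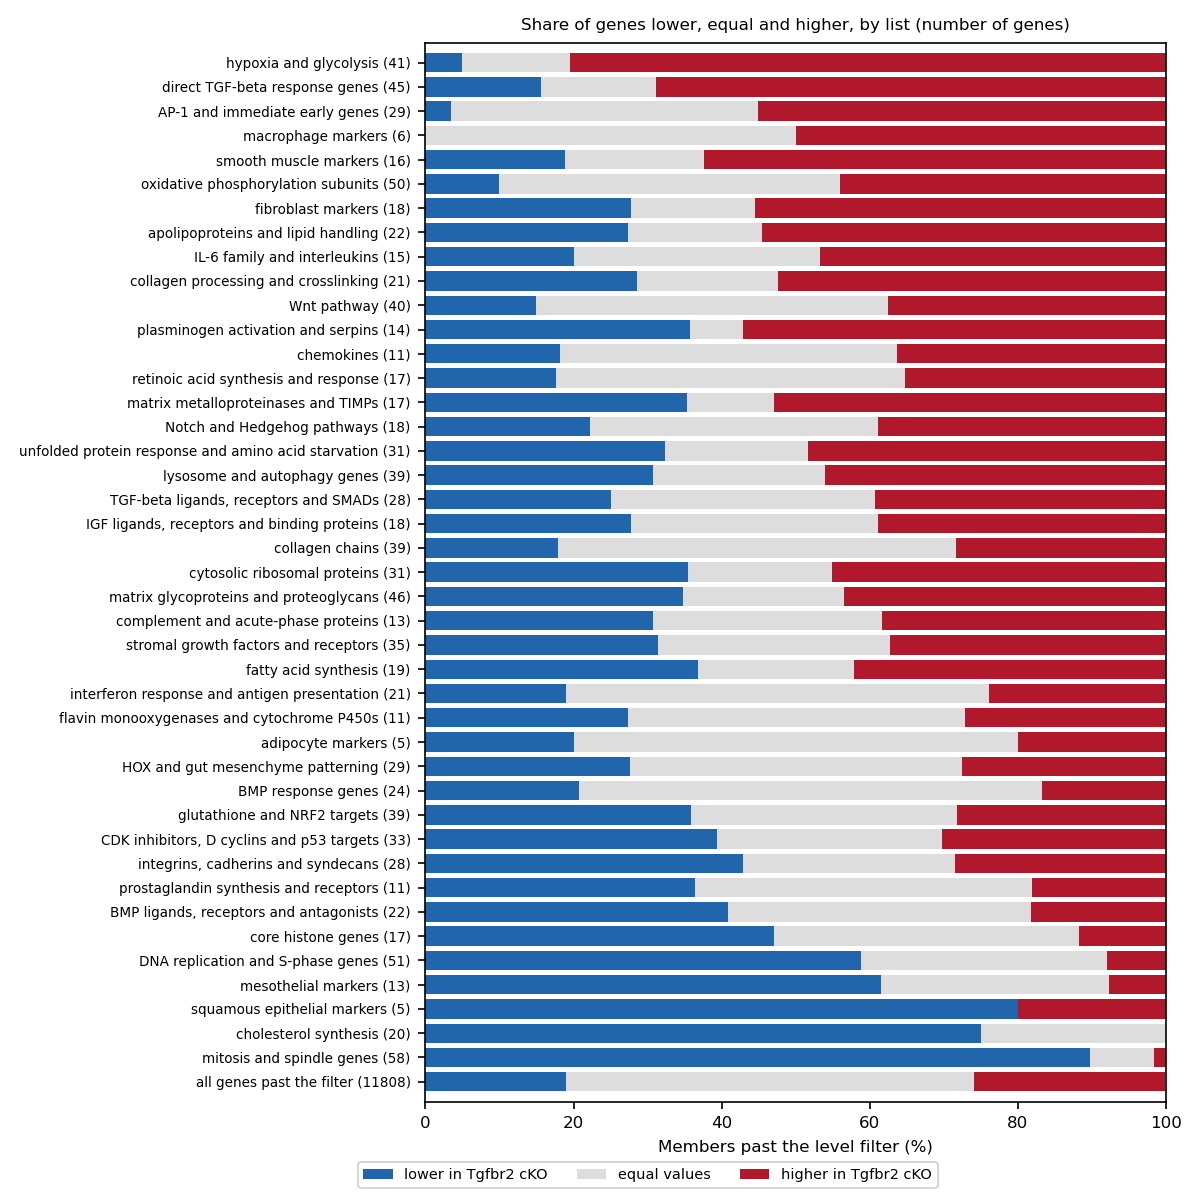
Share of members past the level filter (x axis, percent) that were lower (blue), equal (grey) or higher (red) in the Tgfbr2 cKO array, by list, with the number of genes in brackets and all 11808 genes at the bottom. Mitosis genes, with 52 of 58 lower, and hypoxia and glycolysis genes, with 33 of 41 higher, are set against 19.0% lower and 25.8% higher over all genes.

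Markers of other cell types were read as a check of the cultures. Fibroblast markers were bright, with 12 of 18 in the brightest level bin, 10 higher and 5 lower. Of 20 squamous epithelial markers 5 passed the filter, and the defining genes Krt5, Krt14, Trp63, Cdh1 and Epcam were all below it, at 5.69, 6.54, 6.41, 5.78 and 5.74 in the carcinoma-derived line. Perp, a desmosome gene, was at 8.04, 7.63 and 8.51 and Ivl (involucrin) at 7.41, 7.77 and 6.93. Of the 5 squamous markers past the filter, 4 were lower and 1, Ivl, was higher, with a median of -0.11. The share lower over all genes was 19.0%. The summed signal of that list was 2659 in wild type and 2564 in Tgfbr2 cKO. Macrophage markers past the filter were 3 higher and 3 equal of 6, the higher ones being Lyz2, Cd68 at 7.01, 7.51 and 6.76, and Ctss. At 1.2-fold, 3 of these 6 were higher, against 1.55% over all genes. The leukocyte gene Ptprc and the macrophage gene Adgre1 were below the filter, each at the same value in the 3 arrays, 5.23 and 4.87. With no level filter, 6 of 18 macrophage markers were higher and 0 lower, and 4 were at least 1.2-fold higher. The list's summed signal was 1664 in wild type, 2094 in Tgfbr2 cKO and 1365 in Tgfbr2/Smad4 cKO. Without Lyz2, itself a member, the sum was 1248, 1361 and 1151, a value added after seeing the data. The part of these markers in the value of Mmp12 was not tested. Of 15 mast cell and basophil markers, 2 passed the filter, and Mcpt2 and Mcpt4, which neighbour Mcpt8 on chromosome 14, were at 4.13 and 4.51 in both arrays. Smooth muscle markers numbered 10 higher and 3 lower of 16, and 1 higher and 1 lower at 1.2-fold. Kcnmb1, a potassium channel subunit gene, was at 10.25, 10.61 and 6.04 and Des (desmin) at 8.70, 8.37 and 6.64. Of the 16, 9 lay in the brightest level bin, where 38.9% of genes were higher, against 25.8% over all genes. The split was 9 and 6 after quantile normalization and 10 and 6 after cyclic loess. Endothelial, adipocyte and glial lists kept 2, 5 and 4 members, with medians of 0, 0 and -0.02, and no lymphocyte marker of 10 measured passed.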

How the data were processed

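The deposited table held 1 log2 signal per probe set (35556) and array, read as log2 from its range of 2.82 to 15.6. The sources used here do not state its software, background correction or normalization, and the authors' values were used as deposited. The labels' protocols state transcript-level values from probes along the exons.

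Probe sets with exactly 1 symbol in the platform annotation (21789) were averaged per gene, giving 19938 genes. Symbols were updated for 21698 probe sets through a RefSeq table of GRCm38.p6, used for names and gene order, and 1621 with several symbols and 12146 unlisted ones were left out. Genes were kept where at least 1 array reached the table's median.

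Differences are log2 signal of Tgfbr2 cKO minus wild type, described at 1.2-fold, 1.5-fold and 2-fold without a test. Named genes were the 15 largest differences in each direction with established symbols, list members at least 1.5-fold different (or, in a list with none, up to 4 with the largest difference), TGF-beta and BMP pathway members, targets and defining markers, over 46 lists; other genes named were chosen after their values were seen. Members and lists were chosen with earlier results of these data known. The lists held 1350 symbols, 1233 with a value. Counting steps were tested on simulated data. Analyses used Python 3.11.15, numpy 2.4.6, pandas 2.3.3, matplotlib 3.10.9, R 4.3.3 and limma 3.58.1.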

Additional observations from a re-analysis of the deposited data

Results flagged for a closer look

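Among probe sets without a gene name, outside the comparison above, 1 block differed more widely in both directions. The SD of its differences past the level filter was 0.399, against 0.094 for probe sets with exactly 1 symbol. The block of unlisted probe sets numbered below the first listed one had 2428 past the level filter, of which 115 were at least 1.5-fold higher and 165 lower in Tgfbr2 cKO, together 11.5%, and 3.05% were equal between the arrays. Probe sets with exactly 1 symbol had 0.347% past 1.5-fold and 56.0% equal. What the unlisted block measures is not given in the sources used here, so its differences are not read as those of genes. Elsewhere among the unlisted, probe set 10601088 had log2 levels of 6.33 in wild type, 8.15 in Tgfbr2 cKO and 8.52 in Tgfbr2/Smad4 cKO, a difference of 1.81, larger than that of any named gene past the filter.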

How the results depend on the processing

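No paired analysis was possible because each line had 1 array. Single-array differences have no error, the depth of an array is not a count, and dim genes are the least certain. The count of genes at least 2-fold lower, 1 as reported, was 2 with quantile normalization, 2 with cyclic loess normalization, 0 with the filter at the 75th percentile and 0 with 32 added on the linear scale. The counts at least 1.5-fold higher and lower were 14 and 11 with the 75th percentile filter, and 10 were lower with the offset. The median of the mesothelial markers was -0.024 with no level filter and -0.027 with the 75th percentile filter, in place of -0.28. The cause of these moves was not tested. Of 36 counts, 403 list medians and 1027 gene differences recomputed, 29, 394 and 1012 stayed close to the reported value. Reversal was called for 0, but only a list median or gene difference of at least 1.2-fold could be called reversed. Smaller medians could change sign, as for the metalloproteinases, from 0.005 to -0.011 with the 75th percentile filter. The filter and probe set settings cannot change the difference of a gene read by 1 probe set, so those recomputed values are no check of it. The 15 gene differences that moved did so with the offset. The median of the mitosis list lay between -0.23 and -0.17 and that of the hypoxia list between 0.09 and 0.10.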

Other observations

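Granzyme and mast cell protease genes lie in 1 run of 13 on chromosome 14, and only Mcpt8 and Gzme passed the level filter there. Gzme, chosen after its value was seen, was at 6.30 in wild type, 6.85 in Tgfbr2 cKO and 5.39 in Tgfbr2/Smad4 cKO, a difference of 0.55, and the others with a value differed by -0.11 to 0.06. The kallikrein-related protease gene Klk8, also chosen after its value was seen, was at 9.28, 9.80 and 7.41. The nicotinamide methyltransferase gene Nnmt was at 10.23, 10.85 and 8.59 and the soluble guanylate cyclase subunit gene Gucy1a1 at 7.61, 8.23 and 7.07, while its partner subunit gene Gucy1b1 was at 7.9974 in both arrays compared. A probe set shared by Prl2c2, Prl2c3 and Prl2c4, genes of the prolactin family that it cannot separate, was at 8.38, 7.35 and 7.69, a difference of -1.03.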
